A study of Mus musculus with 2 samples.

Results

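Autosomal CT and CC cytosines are the listed cytosines followed by thymine or by another cytosine in a map of 5-hydroxymethylcytosine (5hmC) of E14, a mouse embryonic stem cell line in long use. They were taken by their dinucleotide code on chromosomes 1 to 19, outside 5 windows of 100 kb in which reads piled up. This gave 260822 CT and 103514 CC sites, together 364336 of the 13025343 cytosines listed in the whole table, or 2.80%. CT sites made up 33.4% of the listed cytosines outside CG, and CC sites 13.3%. Both are set below against 399724 CA and 12082344 CG cytosines chosen in the same way. The study had 1 group of 2 libraries of E14 genomic DNA at passage 12, with no treated, mutant or unglucosylated sample. DNA was glucosylated, cut with AbaSI and sequenced, and the deposited table pools both libraries in 1 count column. All values are therefore descriptions of 1 pooled map, without replicate error and without a test between samples.

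Cytosine is methylated mainly in CG dinucleotides in mammals. TET enzymes oxidise the methyl group to the hydroxymethyl group of 5hmC, which is abundant in embryonic stem cells. Methylation outside CG, collectively CH, is also known in these cells, where the DNMT3 enzymes place it mostly at CA, and CT and CC are regarded as their weaker substrates. AbaSI recognises the glucosylated base and cuts at a set distance 3′ of it, and it prefers sites where a second cytosine faces the first from the opposite strand across the cut. A cut with cytosines on both sides thus cannot by itself say which of them was modified. How often CT, CC and CA occur in the genome was not considered, so site counts are not rates per cytosine, and no sequence beyond the dinucleotide was read from a genome.

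CT and CC sites carried few reads and resembled CA sites much more than CG sites. The median was 5 reads at CT and 6 at CC sites, against 5 at CA and 10 at CG sites. Mean reads per site were 7.53 at CT and 7.89 at CC, against 7.70 at CA and 13.6 at CG. The lowest listed count, 2 reads, was found at 12.0% of CT and 10.8% of CC sites, and at 3.39% of CG sites. At least 10 reads were found at 21.6% of CT sites, 24.2% of CC sites, 22.7% of CA sites and 51.5% of CG sites. High counts were rare: 869 CT sites and 340 CC sites reached 50 reads, which is 0.333% and 0.328% of each, against 2.08% of CG sites. The mean at CC exceeded that at CT on 18 of 19 autosomes, although the gap was smaller than the spread between autosomes. The order turned round with the 5 windows kept, when the mean was 9.36 at CT and 9.05 at CC. Over the 19 autosomes the mean was 7.48 ± 0.516 at CT and 7.80 ± 0.456 at CC (SD over autosomes, which are not replicates).

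**Figure D1:**
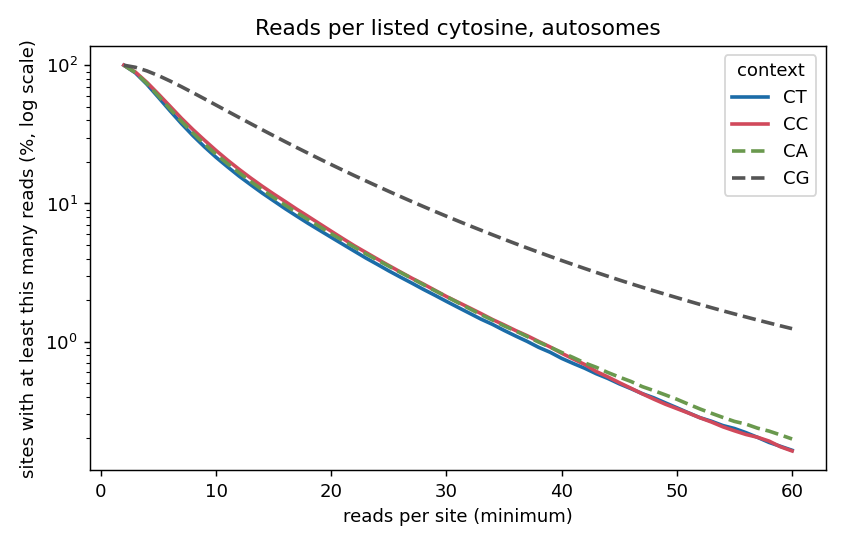
Share of listed autosomal sites (vertical axis, percent, log scale) with at least the number of reads on the horizontal axis, by dinucleotide. The lines for CT and CC lie close to that of CA and far below that of CG: 21.6% of CT and 24.2% of CC sites reached 10 reads, against 51.5% of CG sites.

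A small number of positions held very high counts. The CT cytosine with the most reads was on the minus strand of chromosome 12 at position 3110057, with 11412 reads or 0.581% of all CT reads. The next in rank were also there, at 3110011 with 1656 reads on the minus strand and at 3109991 with 1489 on the plus strand. The leading CC cytosine lay 1 base from the first, at 3110058 on the minus strand, with 3002 reads. These 4 sites carried the class code 1CH, had 29 or 31 other CH sites within 100 bp, and lay 15 to 35 bp from a listed CG. The next CC sites were in class 2CH. The one at 61340005 on chromosome 19 had 807 reads, exactly as many as the CT cytosine facing it at 61339982. The one at 3372561 on chromosome 13 had 713 reads, again equal to its partner, a CA at 3372538. Without the 0.1% of sites with the most reads, the mean was 7.36 at CT and 7.76 at CC, within the spread between autosomes.

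The 2 CH class codes divided CT and CC differently. Class 2CH, whose sites mostly come as facing pairs with equal counts, held 59.9% of CT sites (exact 95% interval 59.7 to 60.1) and 78.6% of CC sites (78.4 to 78.9). CA sites were close to CT, with 59.1% (58.9 to 59.2). On 19 of 19 autosomes the share was lower at CT than at CC, with 59.9% ± 0.717 at CT and 78.6% ± 0.932 at CC (SD, n = 19 autosomes). Reads did not follow this split. Mean reads were 7.48 in class 2CH and 7.61 in class 1CH at CT, and 7.82 in class 2CH and 8.13 in class 1CH at CC. All intervals account for counting error over sites alone. They treat sites as independent, although the members of a facing pair are linked. Amplified reads carried no molecular identifiers, and several can stem from 1 molecule.

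Within class 2CH, partners were looked for on the minus strand 21 to 25 bp to the right of each plus-strand site. Such a partner existed for 85.4% of plus-strand and 85.0% of minus-strand CT sites. Among CC sites it existed for 97.9% of those on plus and 90.5% of those on minus. Of the 209412 pairs found, 161518 or 77.1% held at least 1 CT or CC. Equal counts at both members occurred in 85.9% of these pairs. At distances of 15 to 20 and 26 to 35 bp, equal counts occurred in 4.82% to 12.1% of the few pairs found, here of all CH contexts. The context of such a pair does not show which of its cytosines was modified.

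Pairs joined the contexts in all combinations. A plus-strand CT faced a minus-strand CA in 34239 pairs, a CT in 20560 and a CC in 18443. A plus-strand CC was rarer, facing a CA in 10776 pairs, a CT in 6127 and a CC in 5622. Pairs with a CC on the plus strand were also shorter, with a mean of 21.9 bp when facing a CA, against 22.6 bp when a plus-strand CT faced a CA. Their counts were less often equal, in 78.0% against 87.5% of those pairs. Over all contexts, equality also changed with distance, with 81.7% at 21 bp, 93.2% at 23 bp and 67.9% at 25 bp. The contexts were not compared at equal distance.

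Strand separated CT from CC most clearly. On the plus strand lay 52.4% of CT sites (52.2 to 52.6) but only 31.5% of CC sites (31.3 to 31.8), while CA had 52.9%. The deficit of CC on the plus strand was largely within class 2CH, where 27.4% of CC sites (27.1 to 27.7) and 53.8% of CT sites (53.6 to 54.0) were on it. In class 1CH the shares were 46.7% at CC (46.03 to 47.3) and 50.4% at CT (50.1 to 50.7). The autosomes did not overlap between CT and CC in class 2CH. CT ranged from 52.9% on chromosome 13 to 55.5% on chromosome 16, and CC from 25.7% on chromosome 5 to 29.01% on chromosome 18. Mean reads at CC were 7.82 per plus-strand and 7.92 per minus-strand site, a gap smaller than the SD over autosomes of 0.456. That SD is of the CC mean over both strands. It does not measure the spread of the strand gap within autosomes, which was not computed. The authors' rule for choosing among cytosines near a cut is unknown here, and its part in the strand shares was not tested.

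**Figure D2:**
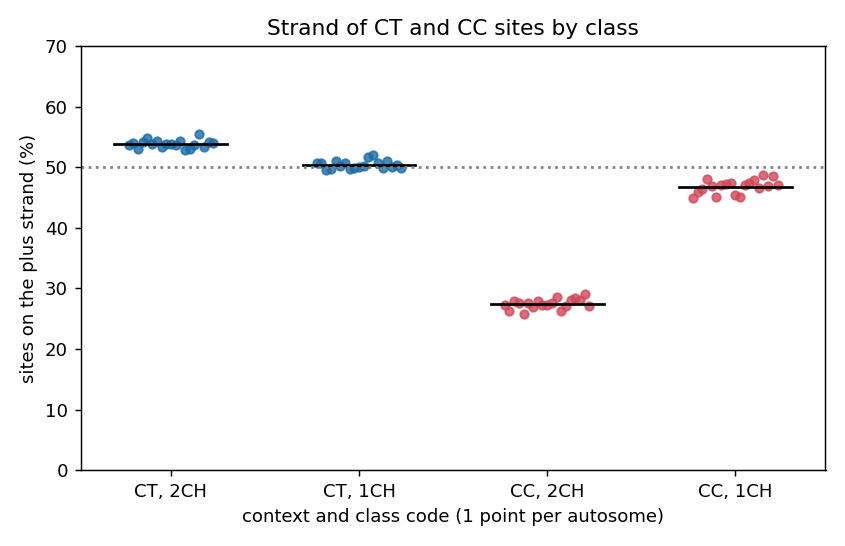
Percent of sites on the plus strand (vertical axis) for CT and CC in classes 2CH and 1CH, 1 point per autosome, with black bars for the mean of the 19 autosomes and a dotted line at equal strands. All 19 autosomes of CC in class 2CH lie between 25.7% and 29.01%, while those of CT in the same class lie between 52.9% and 55.5%.

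The strand difference moved with the distance between the members of a pair. At 21 bp, CC made up 22.4% of plus-strand and 21.1% of minus-strand members, close to balance. At 22 bp it made up 12.5% of plus-strand and 23.6% of minus-strand members, and at 23 bp 9.19% and 26.3%. At 24 bp the values were 1.39% and 32.6%, and at 25 bp 0.467% and 35.7%. CT went the other way on the plus strand, from 25.8% of members at 21 bp up to 51.9% at 25 bp, and stayed between 26.5% and 32.5% on the minus strand. CC sites of class 2CH without a partner in the span were even more one-sided. Of 6088 such sites, 461 or 7.57% (6.92 to 8.27) were on the plus strand, against 53.2% of 23098 unpaired CT sites.

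**Figure D3:**
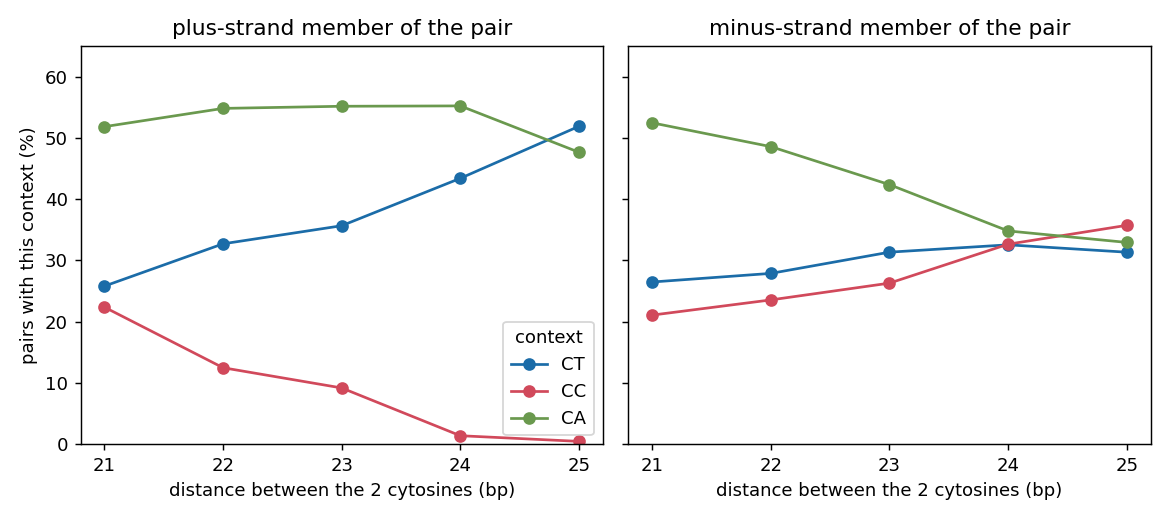
Context of the plus-strand member (left) and of the minus-strand member (right) of class 2CH pairs, in percent of pairs, against the distance between the members in bp. CC on the plus strand falls from 22.4% of pairs at 21 bp to 0.467% at 25 bp, while CC on the minus strand rises from 21.1% to 35.7%.

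The bases next to a CC site could be read where the following cytosine was itself listed. A listed CG directly 3′ on the same strand, which makes the trinucleotide CCG, was present at 3794 CC sites or 3.67% (3.55 to 3.78). In 75.7% of these the CG had more reads than the CC, and in 4.11% the counts were equal. CA, CT and CC followed directly at 1950, 2113 and 1684 CC sites, and there the following cytosine had more reads in 47.03% to 47.9%. CC sites beside a listed CG leaned the other way, to the plus strand. When a CG on either strand was listed in that position, 60.5% of 5343 CC sites were on the plus strand, against 29.97% of the other 98171. Mean reads were similar in both sets, 7.69 beside a CG and 7.90 elsewhere. Class 2CH held 68.7% of the sites beside a CG and 79.1% of the others, and strand was not split by class here.

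Most CT and CC sites lay near a listed CG, and CC lay nearer than CT. The median distance to the nearest listed CG was 68 bp at CT and 54 bp at CC, against 65 bp at CA. The quartiles were 24 and 190 bp at CT and 18 and 152 bp at CC. Within 100 bp of a listed CG lay 60.1% of CT sites (59.9 to 60.3) and 65.8% of CC sites (65.5 to 66.1). CC was nearer on each of the 19 autosomes, where CT minus CC differed by 11 to 20 bp in the median. For both contexts the distance was shortest on chromosome 11, at 54 bp for CT and 42 bp for CC. It was longest on chromosome 3, at 85 bp for CT and 67 bp for CC. Sites more than 1000 bp from any listed CG were few, 12251 at CT (4.70%) and 3506 at CC (3.39%). A listed CG within 2 bp was found at 1.35% of CT and 6.57% of CC sites, and only at CC can a CG begin at the next base.

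Reads were lower far from CG. CT sites within 10 bp of a listed CG had a mean of 8.13 reads, and those 11 to 100 bp away 8.25. The mean was 6.70 from there to 1000 bp and 4.94 beyond. CC sites had means of 8.06, 8.47, 7.17 and 5.18 reads in the same order. At least 10 reads were found at 25.5% of CT and 25.8% of CC sites within 10 bp, and at 7.14% and 8.24% beyond 1000 bp. The strand bias of CC was present in each bin, with 37.9% on the plus strand within 10 bp and 29.1% to 30.4% farther away. How much of each region reads can be mapped to was not tested.

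At base resolution, listed CG were missing or in excess at a few distances. Offsets were read 5′ to 3′ from the cytosine on its own strand, and at 40 to 60 bases on either side a same-strand CG was listed at a mean of 0.482% of CT and 0.547% of CC sites per offset. Exactly 22 bases 3′ this number was 0 of 260822 CT sites and 0 of 103514 CC sites. On the opposite strand the gap was at 23 bases, the other strand of the same CG dyad, again with 0 sites. The bases around it were also below the level farther away, with 0.240% at CT and 0.235% at CC at 21 bases, 0.125% and 0.243% at 23, and 0.298% and 0.347% at 24. At 19 bases it was above that level, with 1.06% at CT (1.03 to 1.10) and 1.61% at CC (1.53 to 1.69). Next to the site the highest value was the 3.67% of CC sites followed directly by CG, and CT had 0.828% at 3 bases. On the 5′ side 2 bases away the share was 0.256% at CT and 0.250% at CC. No such gap was seen around 22 bases on the 5′ side. The opposite-strand gap at 23 bases is at the distance at which 2CH pairs were most frequent. Only there was no CT or CC listed facing a listed CG. At 21 bases an opposite-strand CG was listed at 0.632% of CT and 0.505% of CC sites, and at 22 bases at 0.270% and 0.332%. At 24 bases the shares were 0.140% and 0.295%, and at 25 bases 0.304% and 0.373%. CA sites showed the same gap, with 0 sites at 22 bases. The gap describes which cytosines were listed, and no genome was read to show whether CG occur there. Of the 12082344 autosomal CG sites, 6619178 had a further class code, CGCH, whose meaning is unknown here. Whether the authors' choice among cytosines near a cut fixes the gap in advance was not tested.

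Other CH sites stood around CT and CC at a few fixed offsets. The opposite-strand partner gave the highest values, with a listed CH 23 bases 3′ of 18.9% of CT and 25.2% of CC sites. Close to the site, the opposite strand had 5.33% at 2 bases of CT and 2.37% at 3 bases of CC. A further opposite-strand maximum lay near 43 bases, with 1.92% at CT and 2.75% at CC. On the same strand the highest value was that of the directly following base at CC, where 5.55% had a listed CH. Away from the site itself there were same-strand maxima 20 bases 5′ (1.91% at both CT and CC) and 20 to 21 bases 3′, up to 2.59% at CT and 4.002% at CC. The level at 50 to 60 bases was 0.0744% at CT and 0.0900% at CC on the same strand, and 0.0721% and 0.0793% on the opposite strand.

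**Figure D4:**
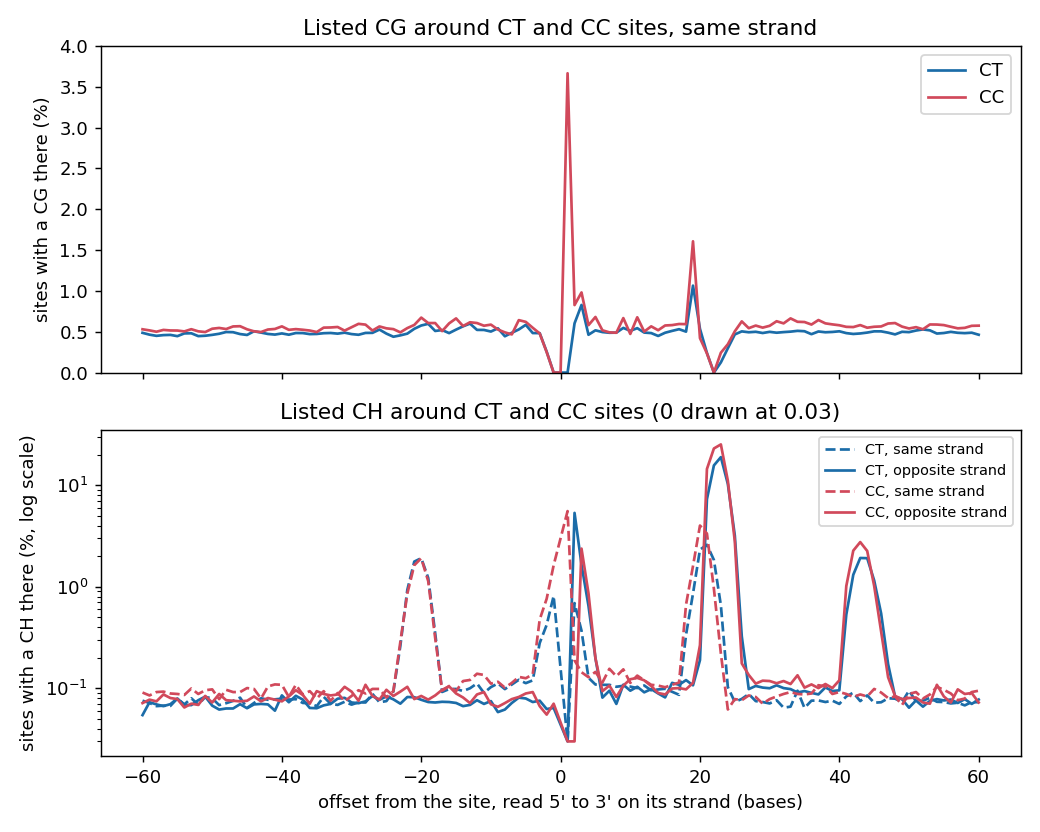
Percent of CT and CC sites with a listed same-strand CG (top, linear axis) or a listed CH cytosine (bottom, log axis, values of 0 drawn at 0.03) at each offset in bases, read 5′ to 3′ from the site. Beyond the first bases, CG drops to 0 at 22 bases and reaches 1.06% at CT and 1.61% at CC at 19 bases, and CH peaks at 23 bases on the opposite strand with 18.9% and 25.2%.

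CT sites with a cytosine listed close by on the opposite strand had more reads. A listed opposite-strand cytosine 2 bases 3′, which makes the trinucleotide CTG with its partner in CAG, was found at 13906 CT sites or 5.33% (5.25 to 5.42). The share ranged from 3.79% on chromosome 10 to 6.502% on chromosome 7. These sites had a mean of 12.7 and a median of 10 reads, against 7.24 and 5 at the other CT sites. The mean over autosomes was 12.4 ± 1.27 at these sites and 7.21 ± 0.501 at the others (SD, n = 19 autosomes), and it was higher on 19 of 19. A same-strand CH cytosine 18 to 23 bases 5′ was listed for 56.4% of them, against 3.25% of the others. The facing partner of a close opposite-strand cytosine would mostly fall in that span. The share thus largely restates the pairing and is not a separate trait of these sites. High counts were not limited to CT sites with a cytosine listed at 2 bases. Sites without one can still be CTG, since no genome was read, so CTG was not set apart from other trinucleotides. CT sites whose closest opposite-strand CH stood 3 or 4 bases 3′ had means of 11.9 and 11.2 reads, and 64.1% and 83.1% of them had the same-strand neighbour. CT sites with none of these had a mean of 7.14 reads. Between a CT and its CA partner in CTG, counts were equal in 5.36% of cases and differed by more than 3-fold in 20.4%. The Spearman correlation of the 13906 pairs of counts was 0.26, a description over sites that share libraries and local depth. A site with more reads is more likely to have both strands listed, and the part of this in the difference was not tested.

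Much of the clustering of CT and CC, though not all, was that of the facing pairs. Another CT or CC lay within 100 bp of 38.8% of CT sites (38.6 to 39.0) and 49.7% of CC sites (49.3 to 49.96). With the facing 2CH partner left out these shares were 18.8% at CT and 23.8% at CC, and on the same strand 12.7% and 17.4%. In class 1CH, 19.1% of CT and 26.9% of CC sites had such a neighbour, against 52.0% and 55.8% in class 2CH. Counting CA as well, 65.8% of CT and 82.7% of CC sites had a CH neighbour. By own context alone the order of CT and CC was reversed. Another site of the same context lay within 100 bp of 28.0% of CT, 19.8% of CC and 39.1% of CA sites. The contexts differ in their number of sites, which bears on all these shares. Of the intervals between consecutive CT and CC sites, 14.7% measured 21 to 25 bp. In 89.5% of those intervals a plus-strand site came before a minus-strand site.

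Joining CT and CC sites at most 100 bp apart gave 279280 runs. Single sites formed 211712 of these, and 55624 runs had 2 sites. Pooled over runs of a size, mean reads per site were 6.51 for single sites, 8.13 for 2 sites, 11.3 for 3 or 4 sites, 12.7 for 5 to 9 sites and 32.7 for 10 or more. The last mean hides a wide range: the run of 211 sites had 7.37, and a run of 23 sites on chromosome 13 had 86.5. The 52 runs of 10 or more sites held 0.319% of the sites and 1.37% of the reads. The run with the most members was on chromosome 17 from 39979956 to 39982633, with 117 CT and 94 CC sites, 1555 reads and 441 listed CG cytosines inside. Further runs of 48 and 87 sites, with means of 7.02 and 8.24 reads, followed it up to 39985421. The mm9 assembly is known to carry a copy of the ribosomal DNA repeat in that stretch, a name from general knowledge and not from the files. Over its 5466 bases there were 195 CT and 157 CC sites, 35.7 and 28.7 per kb, with means of 8.46 and 6.31 reads. A run on chromosome 15 from 74916653 to 74917465 was named after its values were seen. It had 75 CT and 30 CC sites with a mean of 42.8 reads and 16 listed CG. Whether reads of repeated sequence gathered in these runs was not tested.

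Along the genome, CT and CC followed each other and CA. The 24156 autosomal windows of 100 kb, counted from each chromosome's first window with a listed cytosine, had a median of 7 CT and 2 CC sites. No CT was listed in 833 of them and no CC in 4368. The Spearman correlation over windows was 0.76 between CT and CC counts, and 0.86 for CT and 0.80 for CC with CA. With CG it was 0.66 for CT and 0.61 for CC. These are descriptions, since the windows share libraries, mappability and base composition. The window with the most CT and the most CC was on chromosome 8 from 19900001 to 20000000. It held 570 CT and 185 CC sites, with 3854 and 1367 reads, and 418 CG, against a median of 362.5 CG per window. The chromosome 17 window with the stretch named above was the second for both, with 204 CT and 167 CC. The third was on chromosome 8 for both contexts, with 145 CT sites from 19700001 to 19800000 and 65 CC sites from 34900001 to 35000000.

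Chromosomes 8 and 11 had the most CT and CC sites per megabase, and also the most CA and CG sites. CT reached 200.9 per Mb on chromosome 8 and 190.8 on chromosome 11, and 98.9 ± 13.6 on the other 17 autosomes (SD). CC reached 78.2 on chromosome 8 and 75.1 on chromosome 11, and 39.4 ± 6.88 on the other 17. The lowest values of CT and CC were those of chromosome 16, with 78.0 CT and 29.3 CC per Mb. Relative to listed CG chromosome 8 was highest, with 30.7 CT and 12.0 CC sites per 1000 CG. Chromosome 11 had 22.8 and 8.98, close to the medians of the 19 autosomes, 21.5 and 8.60. Chromosome 14 was second, with 28.8 and 11.4, and chromosome 10 was lowest, with 14.9 and 5.68. The ratio of CT to CC sites was narrow, 2.53 ± 0.105 (SD, n = 19 autosomes), from 2.32 on chromosome 7 to 2.71 on chromosome 13.

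**Figure D5:**
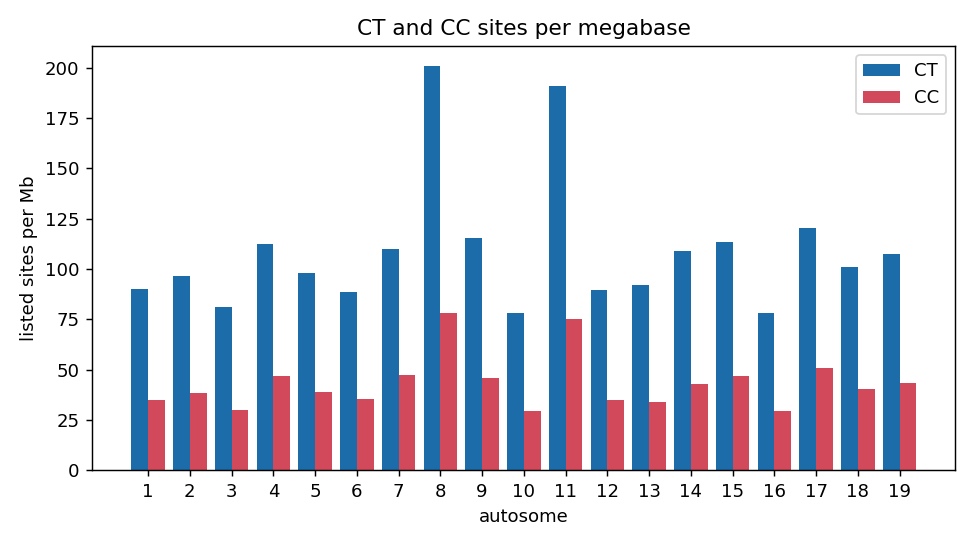
Listed CT and CC sites per Mb (vertical axis) on each autosome (horizontal axis), the megabases counted from the first to the last listed cytosine. Chromosomes 8 and 11 have 200.9 and 190.8 CT sites per Mb, and the next is chromosome 17 with 120.5.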

How the data were processed

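Per the labels' protocols, 100 ng of E14 DNA per library was glucosylated, cut with AbaSI, ligated to a biotinylated adapter, sheared to about 300 bp, captured and amplified for 16 PCR cycles. The submitters' processing notes name CASAVA 1.8.2, Bowtie and the build mm9. Not given in the sources used here were filters, the treatment of PCR copies, the rule from cuts to cytosines, the meaning of the class codes and the joining of the 2 libraries. Whole-number read counts, 1 per cytosine, were deposited by the authors without scaling and with both libraries in 1 column. The counts summed over all listed cytosines to 176006227, given here as reads. Counts were equal at both members of 86.4% of the 2CH pairs found. Whether a read was entered at both members was not tested, so read totals may count some reads more than once. The lowest listed count was 2, so cytosines that are not listed were not treated as 0.

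Positions were converted to 1-based coordinates. Shares have exact Clopper-Pearson intervals at 95%. The spread is the SD over 19 autosomes, and nothing says whether the libraries came from separate cultures. Named sites and windows are the 3 with the most reads or sites in each context, and the run with the most members. Members, rules and comparisons were chosen with earlier results of these data known. Functions were tested on simulated sites. Sequence contexts planned for an mm9 genome were not analysed here. Python 3.11.15, numpy 2.4.6, pandas 2.3.3, scipy 1.17.1 and matplotlib 3.10.9 were used.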

Additional observations from a re-analysis of the deposited data

Results flagged for a closer look

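CT and CC cytosines outside the autosomal set above also carried reads, and they are listed here because the comparisons above leave them out. The 5 windows enter only the alternatives in which they are kept. The 5 windows left out held 2472 CT sites with 500384 reads and 903 CC sites with 128730 reads, with medians of 6.5 and 7 reads per site. In them 24.02% of CC sites of class 2CH were on the plus strand. The X chromosome had 2355 CT and 738 CC sites, 14.4 and 4.51 per Mb, with a median of 4 reads at each. The strand split recurred on X, where 27.5% of CC and 53.8% of CT sites of class 2CH were on the plus strand. The Y chromosome had 48 CT and 12 CC sites. Mitochondrial DNA had 1187 CT and 588 CC sites with means of 18.7 and 11.3 reads. There, 68.2% of all CC sites and 48.2% of CC sites of class 2CH were on the plus strand, and class 2CH made up 38.1% of CC sites.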

How the results depend on the processing

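Of 50 alternatives to 14 results, 22 stayed within the spread used (counting interval, SD over autosomes, or 1.5 times for a number of sites) and 28 moved. What caused each move was not tested, and a higher minimum describes a smaller set. With at least 5 reads there were 152608 CT and 64013 CC sites, with means of 10.7 and 10.9 reads. Class 2CH then held 60.6% of CT sites, and 41.4% of CT and 50.7% of CC sites had a CT or CC within 100 bp. With at least 10 reads there were 56300 CT and 25019 CC sites, with 60.5% and 77.9% in class 2CH. Keeping the 5 windows gave means of 9.36 at CT and 9.05 at CC. Giving 2CH sites a weight of 0.5 gave means of 7.56 at CT and 7.93 at CC. Weighted by reads, 31.3% of CC (31.253) was on the plus strand. Neighbours within 100 bp fell to 12.7% at CT and 17.4% at CC on the same strand, and to 18.8% and 23.8% without the 2CH partner. For CG on the same strand only, the median distance was 99 bp at CT and 79 bp at CC, with 50.3% and 56.0% within 100 bp. For CG of at least 10 reads it was 134 and 102 bp, with 43.9% and 49.7%. In class 1CH alone, 58.0% of CT and 64.8% of CC sites had a CG within 100 bp. Leaving out runs of 10 or more sites, chosen after seeing the data, moved none of the 4 shares it was applied to. The plus-strand share of CC stayed between 31.3% and 31.8% and that of CT between 52.3% and 52.4% in the alternatives run. The pooled column allowed no value without a replicate. No paired analysis was possible because the libraries share 1 column.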
